A study of Mus musculus with 6 samples.

Results

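The genes examined here encode components of the complement system and the receptors of its released peptides. They were taken by symbol and are C1qa, C1qb, C1qc, C2, C3, C4b, Cfb, C3ar1 and C5ar1, 9 of the 21720 gene symbols measured. All 9 passed the filter on low counts, and their lowest value in any library was 668 counts. The complement system is a cascade of plasma and tissue proteins that tags surfaces for phagocytes and attracts leukocytes. C1q, built from the products of C1qa, C1qb and C1qc, recognizes bound antibody and other surfaces and starts the classical pathway, in which C4 and C2 form an enzyme that cleaves C3. The alternative pathway cleaves C3 with an enzyme that contains factor B, the product of Cfb. Cleavage of C3 and C5 releases the anaphylatoxins, small peptides that act on the receptors encoded by C3ar1 and C5ar1. Hepatocytes make most of the complement of plasma, whereas C1q is made mainly by macrophages and dendritic cells.

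RNA-seq was performed on subcutaneous tumours of H22, a hepatocellular carcinoma cell line of the mouse, grown in female WT BALB/c mice of 6–8 weeks. By gavage, the control group received the vehicle alone, 0.5% carboxymethyl cellulose sodium, and the luteolin group the plant flavonoid luteolin at 200 mg/kg, each once daily over 21 days in 0.2 mL, starting at a tumour volume of about 50 mm3. Each group gave 3 libraries, called here replicates 1 to 3. Neither the labels nor the methods say that each came from its own mouse, so the p values measure only the spread between these libraries, which may be technical. The samples are whole tumour tissue, in which fewer cells of a type and less RNA per cell cannot be told apart.

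Total counts ranged from 61081637 to 80442954 per library. Levels are given as CPM, the count divided by the normalized library total in units of 10 to the power of 6, and values of a group are listed from replicate 1 to replicate 3. Among hepatocyte genes, Trf and Afp averaged 321 and 56.5 CPM in the control group, while Ttr lay at 0.392 CPM or less in every library. Alb varied widely, with 3.06, 60.3 and 0.868 CPM in the controls and 133, 26 and 31.9 CPM after luteolin. Luteolin replicate 2 stood apart through skin keratinocyte markers, whose summed level was 8705 CPM there, 378 and 19.7 CPM in luteolin replicates 1 and 3, and 13.6 to 17.6 CPM in the control libraries. The libraries also differed in how deviations from the average profile ran with GC content (Spearman's rho over genes from -0.521 to 0.432, given as a description), and either sign was seen in both groups.

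Promoters are printed as a description of their letters. C2, C4b and Cfb had none here, so motifs were not compared with how far the genes moved. RefSeq (GRCm38.p6) gave a promoter for 5 of the 9 genes, from 250 bases before to 50 bases after the start of the gene. All 5 lie on the minus strand, C1qb at chr4:136886151-136886450, C1qc at chr4:136892865-136893164, C3 at chr17:57228087-57228386, C3ar1 at chr6:122856108-122856407 and C5ar1 at chr7:16259289-16259588, and each is printed 5′ to 3′ along its gene. Capitals mark the letters that matched any of 4 searched motifs.
C1qb: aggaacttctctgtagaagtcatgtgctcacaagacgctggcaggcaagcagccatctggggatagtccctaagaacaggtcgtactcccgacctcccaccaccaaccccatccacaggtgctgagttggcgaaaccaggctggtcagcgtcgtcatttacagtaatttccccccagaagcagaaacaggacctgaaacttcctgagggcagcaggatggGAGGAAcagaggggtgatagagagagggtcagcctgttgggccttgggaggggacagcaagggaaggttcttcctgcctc
C1qc: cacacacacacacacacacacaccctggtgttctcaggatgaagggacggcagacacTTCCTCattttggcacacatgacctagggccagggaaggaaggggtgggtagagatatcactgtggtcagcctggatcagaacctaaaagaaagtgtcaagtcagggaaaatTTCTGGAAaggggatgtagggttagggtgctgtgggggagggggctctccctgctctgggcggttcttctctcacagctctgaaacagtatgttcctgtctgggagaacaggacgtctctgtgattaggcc
C3: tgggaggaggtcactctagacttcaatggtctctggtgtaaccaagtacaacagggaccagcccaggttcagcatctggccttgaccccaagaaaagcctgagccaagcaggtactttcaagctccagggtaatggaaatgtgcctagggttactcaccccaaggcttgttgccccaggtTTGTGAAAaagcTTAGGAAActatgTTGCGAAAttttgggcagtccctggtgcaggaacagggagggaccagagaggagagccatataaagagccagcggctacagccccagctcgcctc
C3ar1: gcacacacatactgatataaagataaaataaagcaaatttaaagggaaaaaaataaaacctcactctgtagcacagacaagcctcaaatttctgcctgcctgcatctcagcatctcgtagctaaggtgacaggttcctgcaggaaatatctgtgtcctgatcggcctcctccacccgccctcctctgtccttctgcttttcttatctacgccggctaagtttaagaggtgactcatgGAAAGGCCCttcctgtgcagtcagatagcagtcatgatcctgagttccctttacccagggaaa
C5ar1: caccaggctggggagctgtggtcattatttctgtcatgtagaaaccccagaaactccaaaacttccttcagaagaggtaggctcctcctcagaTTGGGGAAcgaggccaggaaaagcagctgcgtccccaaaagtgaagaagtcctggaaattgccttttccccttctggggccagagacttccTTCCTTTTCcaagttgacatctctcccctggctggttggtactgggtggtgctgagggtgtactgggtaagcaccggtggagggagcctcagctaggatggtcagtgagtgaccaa

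The motifs belong to factors known from leukocytes and inflammation and were searched on both strands. The ISRE core, GAAANNGAA, to which interferon regulatory factors bind, was in C5ar1 at positions -66 to -58 from the gene start, on the other strand, and in 8.56% of all 32851 promoters of this length. The core GGGNNTTTC of NF-kappaB was in C3ar1 at positions -13 to -5, on the other strand, and in 4.36% of all promoters. The C/EBP motif TTNNGNAA was in C1qc, C5ar1 and C3 and in 40.7% of all promoters. In C3 it occurred at positions -70 to -63, -58 to -51 and -45 to -38, the last of which matched on both strands. The core GAGGAA of PU.1, a factor of myeloid cells, was in C1qb at positions -30 to -25, in C1qc at positions -193 to -188 on the other strand and in 28.3% of all promoters. No matched motif overlapped a match of another motif. These matches describe letters and were not tied to the levels below.

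To examine which complement genes differed after luteolin treatment, each was compared between the groups by edgeR's quasi-likelihood test over 14963 genes, with Benjamini-Hochberg adjustment. The genes for C3, C2, C4 and factor B were higher in the luteolin group, between 2.71-fold and 3.87-fold, and C1q and receptor genes between 1.74-fold and 2.01-fold. Of the 9 genes, 5 were up-regulated at the study's threshold (unadjusted p under 0.05 and more than a 2-fold change), as were 11.3% of all genes tested. These were C2, C3, C4b, Cfb and C3ar1. At the same threshold 0 of the 9 genes were down-regulated, and 1.52% of all genes were. All 9 had an unadjusted p under 0.05 in edgeR, as did 3061 of the 14963 genes tested, in either direction. At an adjusted p under 0.05 in edgeR's test, 4 of the 9 genes were higher (C2, C3, C4b and Cfb), as were 1.34% of all genes. In every gene but C1qa, 8 of the 9, each luteolin library lay above each control library, as in 15.9% of all genes. The median log2 fold change was 1.01 over the 9 genes and -0.0073 over all genes tested. Luteolin replicate 2, the library with the keratinocyte markers, had the highest level in 7 of the 9 genes. The share of all genes highest in that library was not computed. Without that library, the same 5 genes passed the study's threshold and the same 4 had an adjusted p under 0.05 in edgeR. In that setting 1139 and 276 of 15137 genes tested did so on the higher side.

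**Figure D1:**
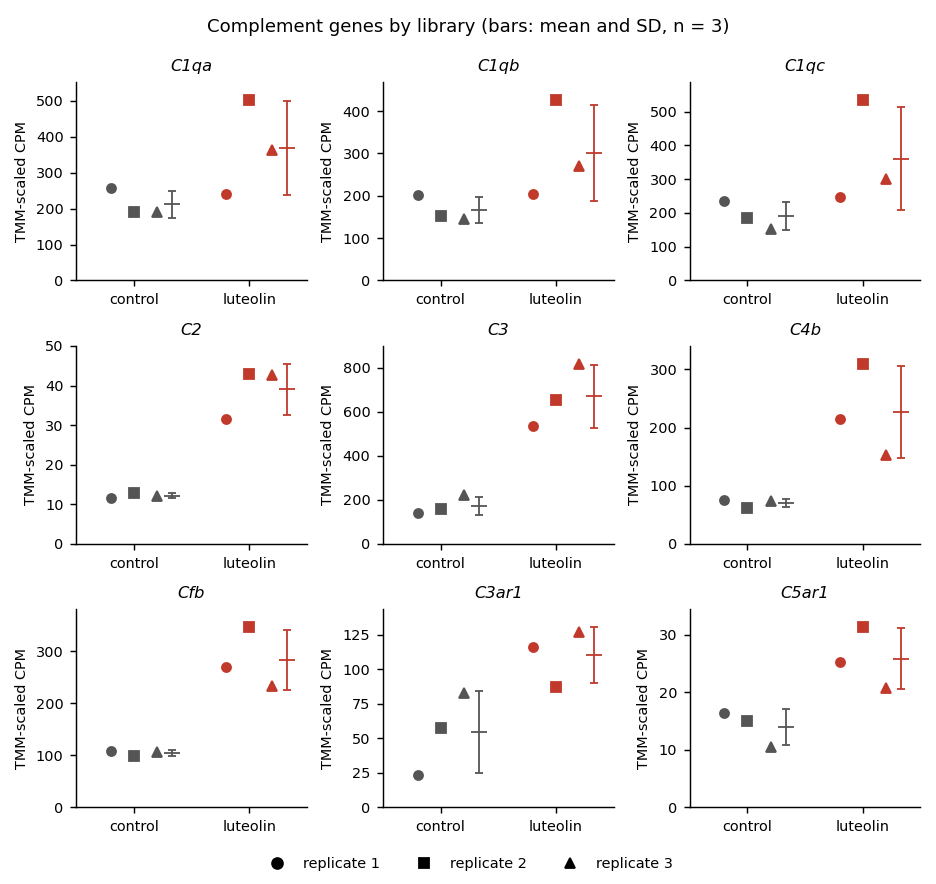
Level of each of the 9 complement genes in CPM (y axis, linear from 0) in the 3 control and 3 luteolin libraries, with the symbol shape giving the replicate number and the bars the mean and SD. C2, C3, C4b and Cfb separated the groups with a wide gap, C1qa overlapped between them, and the control libraries of C3ar1 spread from 23.8 to 82.6 CPM.

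C3, the component on which all pathways converge, differed most among the 9 genes. It had 142, 157 and 220 CPM in the controls. In luteolin replicates 1, 2 and 3 it had 536, 655 and 819 CPM. The groups did not overlap, and the gap between them was wider than the spread within either. The means were 173 ± 41.5 and 670 ± 142 CPM (SD, n = 3 each), which is 1.95 on the log2 scale (standard error, SE, 0.24, edgeR adjusted p = 0.0331).

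Cfb, which encodes the protease of the alternative pathway, was even among the controls at 109, 97.9 and 106 CPM. It had 270, 346 and 233 CPM after luteolin. The lowest luteolin library, replicate 3, still lay far above the highest control. Cfb rose by 1.44 on the log2 scale (SE 0.18, edgeR adjusted p = 0.0331), from 104 ± 5.87 to 283 ± 58.0 CPM (SD, n = 3 each).

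C2, the protease of the classical pathway that resembles factor B, was the least abundant of the components. The controls had 11.5, 12.9 and 12.2 CPM. The luteolin libraries had 31.5, 42.9 and 42.7 CPM. The controls were again close together, and the luteolin libraries all lay clear of them, replicate 1 being the lowest. The log2 fold change was 1.68 (SE 0.20, edgeR adjusted p = 0.0331), with means of 12.2 ± 0.673 and 39.0 ± 6.53 CPM (SD, n = 3 each).

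C4b encodes complement C4, the partner of C2. Its level was 74.9, 62.6 and 73.8 CPM in the controls. It was 215, 310 and 153 CPM after luteolin. Replicate 2 was the highest and replicate 3 the lowest of the luteolin group, and none reached down to the controls. The means of 70.4 ± 6.78 and 226 ± 79.1 CPM (SD, n = 3 each) gave a log2 fold change of 1.68 (SE 0.27, edgeR adjusted p = 0.0429), which was 1.40 without luteolin replicate 2.

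For C2, C3, C4b and Cfb, the call at the study's threshold held in each of 16 alternative settings. The call at an adjusted p under 0.05 was lost in all 4 when control replicate 1, 2 or 3 or luteolin replicate 1 was left out. With these omissions 5 to 8 of the 9 genes still had an unadjusted p under 0.05 in edgeR. In the same order, 2310 of 15513, 1907 of 15530, 2410 of 15501 and 2462 of 15272 genes tested did, in either direction. With each of these omissions, 0 of all genes tested reached an adjusted p under 0.05 on the higher side.

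The C1q genes encode the A, B and C chains of the recognition molecule, which are assembled together. C1qa had 256, 190 and 190 CPM in the controls and 241, 502 and 362 CPM after luteolin. C1qb had 201, 153 and 146 CPM against 205, 426 and 270 CPM in the same order. C1qc had 235, 186 and 152 CPM against 248, 534 and 300 CPM. In all 3 genes luteolin replicate 1 stood beside control replicate 1 and luteolin replicate 2 was highest, and the groups overlapped in C1qa. The log2 fold changes were 0.80, 0.85 and 0.91 for C1qa, C1qb and C1qc, with standard errors from 0.28 to 0.32. Their adjusted p values in edgeR's test were 0.185, 0.174 and 0.179, so the C1q genes did not pass, and their fold changes stayed under the study's limit of 2. Without luteolin replicate 1 the log2 fold changes were 1.02, 1.06 and 1.12 and all 3 genes passed the study's threshold. In that setting 1710 of 15272 genes tested passed it on the higher side. Without luteolin replicate 2 the log2 fold changes of the 3 genes were 0.52, 0.53 and 0.53. Offsets for GC content and length gave 0.58, 0.61 and 0.74, and voom gave 0.47, 0.51 and 0.51. The longest C1q transcripts are 57.4% to 59.5% GC. Control replicate 1 and luteolin replicate 2, the highest C1q libraries of their groups, were also those whose deviations rose with GC content (Spearman's rho 0.421 and 0.432). The part of GC content in the C1q values was not tested.

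Within a library the C1q genes kept a narrow ratio to each other. Per kilobase of exon, C1qb stood at 0.713 to 0.811 of C1qa in the 6 libraries, with a coefficient of variation of 5.24%. C1qc stood at 0.432 to 0.573 of C1qa, with a coefficient of variation of 11.3%, and its mean of 0.505 became 0.810 with the longest transcript as the length. Both ratios overlapped between the groups. The 3 genes lie side by side on chromosome 4 in the RefSeq annotation, in the order C1qb, C1qc and C1qa.

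C3ar1 and C5ar1 encode the G protein-coupled receptors of the anaphylatoxins, found on myeloid and mast cells. C3ar1 had 23.8, 57.5 and 82.6 CPM in the controls. It had 116, 87.5 and 127 CPM after luteolin. The controls were the most scattered of any of the 9 genes relative to their mean, and luteolin replicate 2 stood just above control replicate 3. The log2 fold change was 1.01 (SE 0.42), at the edge of the study's threshold with an unadjusted p of 0.0488, and the adjusted p was 0.242 in edgeR's test. Without control replicate 1, the lowest library, it was 0.64 and C3ar1 no longer passed. It also fell short of the threshold without control replicate 2 (1.04), luteolin replicate 1 (0.97) or luteolin replicate 3 (0.86), and with the RLE normalization (1.00). C3ar1 passed in the other 11 of the 16 alternatives, with its highest log2 fold change, 1.43, without control replicate 3. Its adjusted p lay between 0.0183, in voom, and 0.49 over the 16 alternatives.

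C5ar1 was less abundant, with 16.4, 15.0 and 10.4 CPM in the controls. The luteolin libraries had 25.3, 31.3 and 20.8 CPM. The groups did not overlap, with control replicate 3 the lowest and luteolin replicate 2 the highest. The log2 fold change was 0.89 (SE 0.26, edgeR unadjusted p = 0.011, adjusted p = 0.133), short of both thresholds. The adjusted p was 0.0197 in DESeq2 and 0.0168 in voom, and between 0.0168 and 0.362 over the 16 alternatives. The ratio of C3ar1 to C5ar1 per kilobase ranged from 0.867 to 4.76 in the controls and from 1.67 to 3.63 in the luteolin libraries. C5ar2, the gene of another receptor of C5a, averaged 1.21 ± 0.240 CPM in the control and 1.29 ± 0.324 CPM in the luteolin group (SD, n = 3 each).

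**Figure D2:**
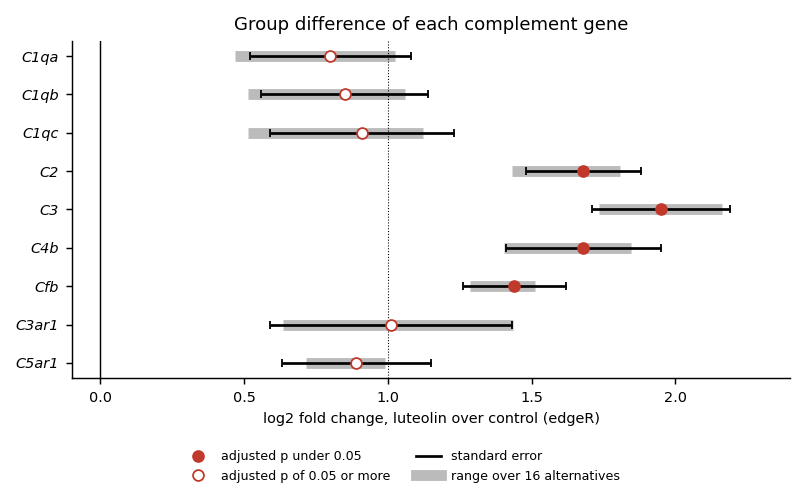
Log2 fold change of luteolin over control (x axis) of each complement gene, with the standard error as a black bar and the range over 16 alternative settings as a grey bar. Filled points, from 1.44 to 1.95, are the 4 genes with an adjusted p under 0.05 in edgeR's test, and the dotted line at 1 marks the fold change limit, near which the C1q and receptor genes lie (0.80 to 1.01).

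The 9 genes were ranked by level as CPM per kilobase of exon. On this scale the means of the 6 libraries were 279 for C1qa, 215 for C1qb and 143 for C1qc, followed by 81.9 for C3, 68.6 for Cfb, 26.0 for C4b, 19.1 for C3ar1, 7.72 for C5ar1 and 6.61 for C2. With the longest transcript as the length, a choice made after seeing the data, C1qc (229) came before C1qb (215), and C2 (9.69) before C5ar1 (7.81). C1qa ranked at place 122 of 14635 tested genes with a known length, C3 at place 452 and C2 at place 6858. The order differed between the groups for C3 and Cfb, which stood at 33.6 ± 8.06 and 36.9 ± 2.08 in the control group and 130 ± 27.6 and 100 ± 20.5 in the luteolin group (SD, n = 3 each), neighbours whose libraries overlapped within each group. It also differed for C3ar1 and C4b, at 12.7 ± 6.86 and 12.4 ± 1.19 in the control group and 25.6 ± 4.69 and 39.7 ± 13.9 in the luteolin group, again with overlap in both. C5ar1 and C2 stood at 5.41 ± 1.22 and 3.15 ± 0.174 in the control group, without overlap, and at 10.0 ± 2.04 and 10.1 ± 1.69 in the luteolin group, with overlap. The ratio of C3 to C1qa per kilobase was 0.112, 0.168 and 0.234 in the controls and 0.449, 0.264 and 0.458 after luteolin, without overlap. Factor B exceeded C2 by 7.48 to 13.0 times per kilobase, with overlap between the groups.

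Markers of macrophages and several other cell types were also compared. Of 10 macrophage markers, 6 were up-regulated at the study's threshold and 0 were down-regulated, against 11.3% and 1.52% of all genes tested. None of the 10 was at 0 in any library. Their summed level was 520 to 644 CPM in the control libraries and 1069 to 1119 CPM in the luteolin libraries. The most abundant, Mrc1 and Csf1r, had log2 fold changes of 0.74 and 0.73 and edgeR gave adjusted p values of 0.243 and 0.128. Each of the 9 complement genes was therefore also set against this sum within each library, as a description without a test. C3 stood at 0.272 to 0.342 of the macrophage sum in the controls and at 0.480 to 0.766 in the luteolin libraries. C2 stood at 0.0189 to 0.0242 and 0.0282 to 0.0399, and Cfb at 0.164 to 0.210 and 0.218 to 0.310, in the same order. These 3 genes did not overlap between the groups on this scale either. The share of all genes that separate the groups on this scale was not computed. C4b, the C1q genes and both receptor genes overlapped. C1qa, for example, stood at 0.492, 0.357 and 0.295 of the sum in the controls and at 0.216, 0.449 and 0.338 after luteolin.

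**Figure D3:**
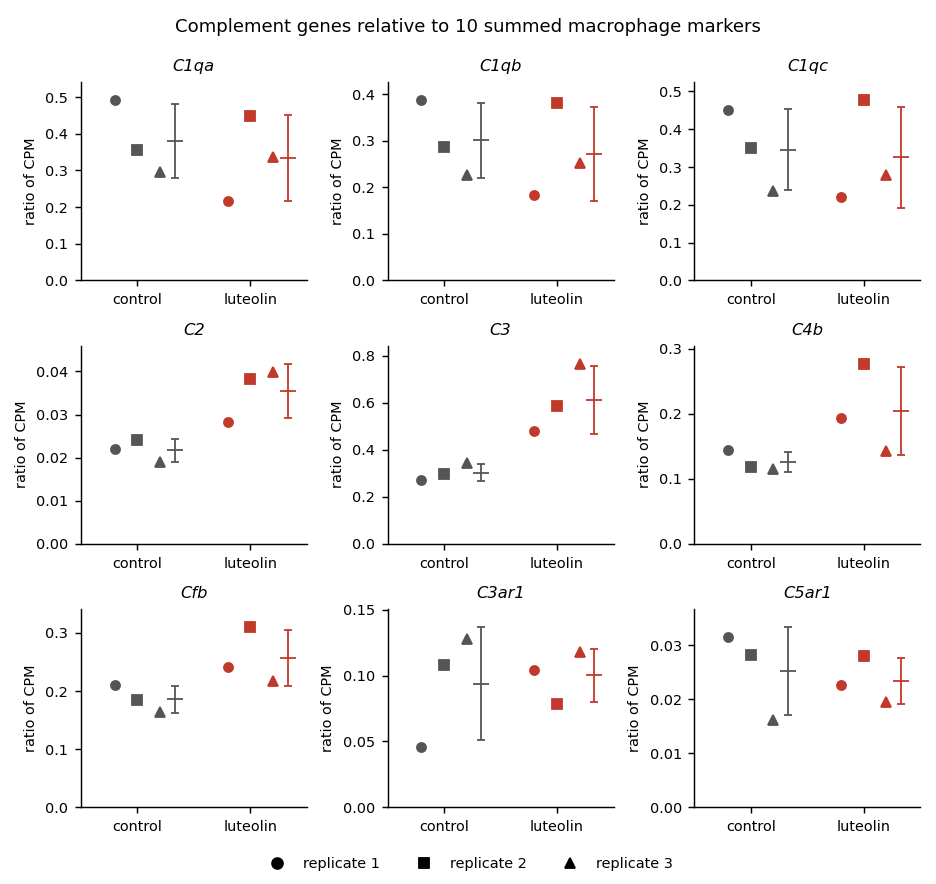
Ratio of each complement gene to the summed CPM of 10 macrophage markers (y axis, linear from 0) in each library, with bars for the mean and SD of 3 libraries. The groups separate for C2, C3 and Cfb and overlap for the other 6 genes. C3 stands at 0.272 to 0.342 in the controls and at 0.480 to 0.766 in the luteolin libraries. The share of all genes that separate the groups on this scale was not computed.

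The sums of fibroblast, neutrophil, mast cell and keratinocyte markers also separated the groups, with luteolin above. The counts of up-regulated and down-regulated markers that follow stand beside 11.3% and 1.52% of all genes tested. The fibroblast sum was 1433 to 1608 CPM in the controls and 2086 to 5115 CPM in the luteolin libraries, with 6 of 8 genes up-regulated at the study's threshold, among them Col1a1 (log2 fold change 1.41) and Col3a1 (1.23). The neutrophil sum went from 46.4 to 52.8 CPM up to 126 to 230 CPM, with 5 of 8 genes up-regulated, among them Csf3r. Mmp9 was not, with a log2 fold change of 0.80 and an edgeR adjusted p of 0.0845. Retnlg and Ly6g also fell short, at 0.43 and -0.57 (edgeR adjusted p 0.814 and 0.861), and overlapped between the groups. Ly6g lay at 0.556 CPM or less in every library. The mast cell sum went from 7.64 to 13.7 CPM up to 28.6 to 95.0 CPM, with 5 of 6 genes up-regulated, among them Mcpt4 and Tpsb2. The keratinocyte sum separated only narrowly, with 19.7 CPM in luteolin replicate 3 and 17.6 CPM in control replicate 1. Of 8 keratinocyte markers, Krt14 and Krt10 among them, 7 were up-regulated at that threshold, and 6 were at 0 in each control library. Krt10 overlapped between the groups, with 4.26 CPM in luteolin replicate 3 and 4.28 CPM in control replicate 2. Sums of the dendritic cell, endothelial and adipocyte markers overlapped between the groups, with 4 of 6 (among them Ccr7 but not Zbtb46), 2 of 6 (Pecam1 but not Cdh5) and 0 of 4 tested genes (Lipe and Cidec included) up-regulated. The hepatocyte sum went the other way without overlap, from 367 to 427 CPM in the controls to 196 to 357 CPM after luteolin, with 0 of 7 tested genes past the study's threshold in either direction. Trf made up most of that sum in the controls, and the median log2 fold change of the 7 genes had the opposite sign, 1.57. The part of any cell type in the complement values was not tested.

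The rest of the pathway was taken from lists of 43 other complement genes, of which 42 had values and 31 passed the filter on low counts. At the study's threshold 10 of the 31 (32.3%) were up-regulated and 0 were down-regulated, against 11.3% and 1.52% of all genes. At an adjusted p under 0.05 in edgeR, 3 (9.68%) were higher, against 1.34% of all genes. Their median log2 fold change was 0.89. In 11 of the 31 (35.5%) the luteolin libraries all lay above the controls, against 15.9% of all genes, and in 1, Cd93, all lay below, against 12.8% of all genes.

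Among the genes that act beside C1q, those of its proteases C1r and C1s were up-regulated. C1ra had 28.2, 23.2 and 24.0 CPM in the controls and 101, 102 and 60.6 CPM after luteolin, which is 1.81 on the log2 scale (SE 0.24, edgeR adjusted p = 0.0331). C1s1 had 17.3, 29.6 and 35.4 CPM against 157, 124 and 89.5 CPM, which is 2.17 on the log2 scale (SE 0.33, edgeR adjusted p = 0.0393). Luteolin replicate 3 was the lowest of its group in both, unlike in C3. Of the 7 tested genes of classical and lectin initiation, 5 were up-regulated at the study's threshold, beside 11.3% of all genes tested. The others were Masp2 and Fcna, which encodes the lectin ficolin A. Fcna had 18.7 ± 4.34 CPM in the control and 12.5 ± 2.09 CPM in the luteolin group (SD, n = 3 each), with an adjusted p of 0.261 in edgeR. Mbl1 and Mbl2, the genes of the mannose-binding lectins, had at most 9 counts in any library.

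Of the regulators, Serping1, the gene of the C1 inhibitor that blocks C1r and C1s, had 64.1, 73.1 and 76.3 CPM in the controls. It had 214, 274 and 193 CPM after luteolin. Its log2 fold change of 1.67 (SE 0.18, edgeR adjusted p = 0.0309) came with no overlap between the groups. Clu, the gene of clusterin, went from 68.1 ± 7.07 to 58.0 ± 33.4 CPM (SD, n = 3 each; edgeR adjusted p = 0.789). Of 6 tested soluble regulators 2 were up-regulated at the study's threshold, and of 5 tested membrane regulators 1, the low-level gene Cd59b. Both counts stand beside 11.3% of all genes tested. Cr1l, the most abundant membrane regulator, had a log2 fold change of 0.21, Cd55 of 1.90 and Cd59a of 1.53, and edgeR gave adjusted p values of 0.726, 0.315 and 0.365.

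Of the alternative pathway, Cfp, the gene of properdin, had 56.3 ± 8.14 and 80.4 ± 24.4 CPM (SD, n = 3 each), which is 0.51 on the log2 scale (edgeR adjusted p = 0.290). Cfd, the gene of the protease factor D, which is abundant in fat tissue, had 0, 0.108 and 11.5 CPM in the controls. It had 9.21, 123 and 1.78 CPM after luteolin, so the groups overlapped and luteolin replicate 2 held most of the signal. The adipocyte sum was also highest in that library, at 101 CPM against 17.3 to 32.9 CPM in the other libraries.

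The terminal pathway builds the membrane attack complex. Hc, the gene of C5, had 29.2 ± 9.35 CPM in the control and 18.9 ± 5.10 CPM in the luteolin group (SD, n = 3 each), which is -0.63 on the log2 scale (SE 0.31, edgeR adjusted p = 0.312). C6 was up-regulated at the study's threshold with a log2 fold change of 1.37 (edgeR adjusted p = 0.110), from 6.12 ± 1.60 to 15.8 ± 6.24 CPM (SD, n = 3 each). C8g averaged 1.69 and 1.30 CPM. C9 was at 0 counts in all 6 libraries, which allows up to 3 counts in each, and up to 12 if a read pair is worth 4 counts, and these limits cover counting error only. C7 was at 0 in each control library and had 7, 8 and 5 counts after luteolin.

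Among the other receptors, Itgax, which encodes a chain of complement receptor 4, had 90.4, 86.6 and 86.0 CPM in the controls and 134, 196 and 252 CPM after luteolin, which is 1.14 on the log2 scale (SE 0.24, edgeR adjusted p = 0.0693). Itgb2, the chain that complement receptors 3 and 4 share, had 339 ± 14.0 and 329 ± 36.0 CPM (SD, n = 3 each), and Itgam, the other chain of receptor 3, had 76.8 ± 32.8 and 89.6 ± 28.7 CPM, and edgeR gave adjusted p values of 0.912 and 0.802. Of the 7 receptor genes of this list, 1 was up-regulated at the study's threshold, beside 11.3% of all genes tested.

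**Figure D4:**
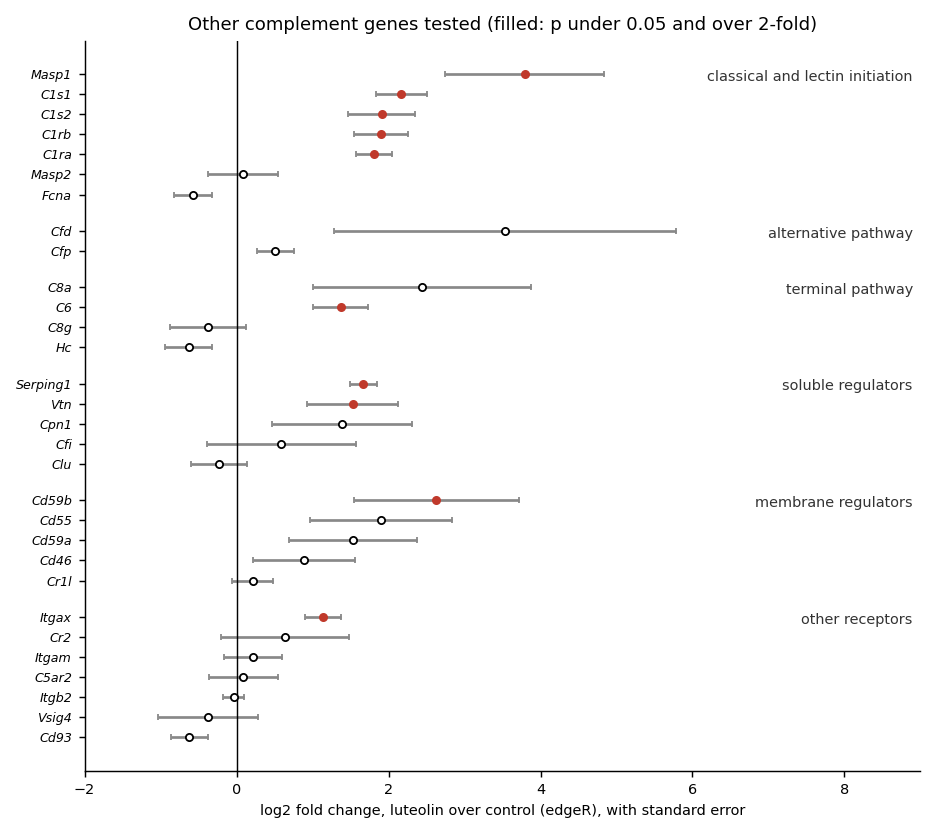
Log2 fold change of luteolin over control (x axis) with its standard error for 30 of the 31 tested complement genes outside the 9, grouped by role. The 10 filled points passed the study's threshold, of which 5 belong to classical and lectin initiation. Hc, Clu, Itgb2, Fcna and Cd93 are among the genes left of 0, and no gene left of 0 passed it.

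Genes with the most similar pattern were sought by the root mean square difference between profiles of log2 CPM over the 6 libraries, each centred on its own mean. Among the 9 genes themselves C1qa and C1qb were nearest (0.069), then C1qb and C1qc (0.090), C1qa and C1qc (0.151) and C4b and Cfb (0.170). Among all other tested genes, the nearest to C1qb was Cotl1 (0.042), followed by Cerk and H2-DMb2. Those of C1qa were Galm (0.082), Cotl1 and Pld3, and those of C1qc were H2-DMb2 (0.069), H2-K1 and Inka1. Cfb lay nearest to Lcp2 (0.042), Tmem140 and Csf2rb, C4b to Tbc1d2b (0.074), Ppp1r3d and Fgfr1, and C2 to Tnfsf13b (0.070), Zfp810 and Dennd3. C3 had no neighbour as close, with Gcnt4 (0.173), Zfp78 and Hoxa10 the nearest. These neighbours of C3 were low, at most 3.69, 0.865 and 0.957 CPM in any library. Galm, Inka1, Tnfsf13b, Zfp810 and Ppp1r3d were also low, at most 4.98 CPM, so counting error weighs more in such matches. C3ar1 lay nearest to Atp8b4 (0.102), Mndal and Gvin2, and C5ar1 to Ptprn (0.098), Ust and Ftl1. The likeness is a description over 6 libraries, between which depth and the relation to GC content also varied.

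For 3 of the 9 genes, reads could be shared with another gene. Of the 150-base stretches of the longest C4b transcript in GENCODE M21, 8.26% also occur in C4a, a similar gene. C4a had no value under that symbol among those measured, and whether its reads were counted in C4b was not tested. The aligned transcripts are 96.1% identical, and their longest identical run is 433 bases. The 60-base stretch with the most differences, bases 2761 to 2820 of the C4b transcript and 2755 to 2814 of the C4a transcript, is printed to show how the copies can be told apart, with the 13 differing bases in capitals.
C4b: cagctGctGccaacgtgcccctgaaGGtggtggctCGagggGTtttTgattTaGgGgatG
C4a: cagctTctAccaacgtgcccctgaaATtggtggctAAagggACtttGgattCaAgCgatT

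C2 and Cfb are near neighbours on chromosome 17, and a predicted gene, Gm20547, overlaps both on the same strand. Of their 150-base stretches, 48.3% and 80.7% also occur in Gm20547. It had 11, 17 and 0 counts in the controls and 582, 0 and 0 counts after luteolin. In luteolin replicate 1, where it had 582, C2 had 1928 and Cfb 16514 counts, and the part of shared reads in these values was not tested. Zbtb12 overlaps an exon of C2 on the opposite strand. The other 6 genes shared no 150-base stretch with another gene.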

How the data were processed

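RNA-seq libraries of tumour tissue, 3 of the control and 3 of the luteolin group, were analysed. For each gene symbol the authors deposited an unscaled whole number, taken here as an estimated count because multiples of 4 made up 44.8% of the low values (1 to 40) where an even spread gives 25%. A unit may therefore not be 1 read pair. The submitters' processing notes name bcl2fastq 2.0, HISAT2, StringTie and DESeq2 and the builds mm39 and rn6, the latter a rat build. Which of them made the table, and the annotation used, are not given in the sources used here, and whether strand was counted is not stated either. Reference sequences and lengths come from GRCm38, so no position was taken from the table. All 9 genes were found in GENCODE M21, as were 21053 of 21720 symbols, and 14635 tested genes had a length and GC content.

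The groups were compared by the two-sided quasi-likelihood test of edgeR 4.0.16 under R 4.3.3, after filterByExpr and TMM normalization and without covariates, with Benjamini-Hochberg adjustment over 14963 genes. The standard error is the log2 fold change divided by the square root of F. Log2 CPM has a prior count of 2. CPM per kilobase uses all exons of a gene merged. The 9 genes, the lists of other complement genes and cell markers, and the motifs were chosen with earlier results of these data known, so the lists are described by counts and medians. The text names the 9 genes, the 3 most abundant tested genes of each complement list and any other of its genes with an adjusted p under 0.05, the 2 most abundant of each marker list, and the 3 genes nearest in pattern to each of the 9. One regulator that the rule names is not reported here. Named outside this rule, after their values were seen, were Ttr, Alb, Ly6g, Retnlg, Masp2, Mbl1, Mbl2, C5ar2, C7, C9, Cd59b, Cd93, C4a, Zbtb12 and Gm20547.

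The 16 alternatives were DESeq2 1.42.0, limma 3.58.1 voom with sample quality weights, RLE and upper-quartile normalization, no filter on low counts, at least 10 counts in every library, a replicate block, division of the values by 4, GC and length offsets alone or combined with that block, and the omission of each library. The edgeR, DESeq2 and voom fits were tested on simulated data.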

Additional observations from a re-analysis of the deposited data

How the results depend on the processing

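The count of the 9 genes up-regulated at the study's threshold, 5, lay between 4 and 7 in the 16 alternatives, and 0 of the 9 were down-regulated in each. No log2 fold change of the 9 genes turned negative in any alternative. The count at an adjusted p under 0.05, 4, ranged from 0 to 4 with each library left out in turn and was 5 in DESeq2 (C5ar1 added), 6 in voom (C3ar1 and C5ar1 added) and 5 with offsets for GC content and length (C1qc added). It was 1 with the replicate block, where the adjusted p was 0.026 for C3, 0.0737 for C2, 0.0823 for Cfb and 0.095 for C4b, and 3 with the replicate block and the offsets (C4b at 0.055). The replicate numbers are not shown to pair the libraries, since the deviations of same-numbered libraries from their group means correlated at -0.196, -0.092 and 0.063, and 1 of 6 libraries correlated best with its own number. The count of other complement genes up-regulated at the study's threshold, 10, lay between 8 and 13, and 0 were down-regulated in each alternative. Over all genes, 200 were higher at an adjusted p under 0.05 against 1543 in DESeq2, 1886 in voom, 345 with at least 10 counts in every library, 34 with the replicate block, 334 with values divided by 4, 665 with the offsets and 0 without any control library or luteolin replicate 1. At the study's threshold 227 genes were lower, against 498 in voom and 140 without control replicate 3. With the longest transcript as length, the mean ratio to C1qa of C1qc was 0.810 in place of 0.505 and that of Cfb to C2 was 7.66 in place of 10.9. Of the 27 nearest genes, 26 were also found with a prior count of 0.5. The range of total counts bounds what the low-level genes C7, C9, Mbl1 and Mbl2 can show, and 3 libraries per group limit every comparison.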
